A study of Bos taurus with 2 samples.

Results

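Cyclins, the cyclin-dependent kinases (CDKs) they activate, and the RB and E2F proteins that turn kinase activity into a round of gene expression were described here in pools of bovine embryos with and without siRNA against CDKN1C. Genes were taken by symbol. The set holds cyclins A, B, C, D, E, F, H, K, L and T, the numbered CDKs, the numbered E2F factors with their partners TFDP1 and TFDP2, the pocket proteins RB1, RBL1 and RBL2, the phosphatases CDC25A, CDC25B and CDC25C, the kinase WEE1, and the small CDK subunits CKS1B and CKS2. In all, 55 of 21209 gene symbols met the rule, at 56 loci on 26 chromosomes, and CDK10 was the gene listed at more than 1 locus.

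The study compared 1 pool of embryos whose zygotes had received siRNA against CDKN1C with 1 pool of sham-injected embryos, punctured by the needle without siRNA. Both pools came from in vitro fertilised Bos taurus oocytes, the RNA of each was amplified before sequencing, and each gave 1 library. The number of embryos in a pool, their stage at collection for sequencing and the siRNA concentration used for these pools are not given in the labels. The sham pool lacked siRNA of any sequence, so the effect of the siRNA target and of siRNA as such cannot be told apart, and the study's non-injected and GFP siRNA embryos are not analysed here. With 1 library in each group there is no replicate error, so no test was run and each difference below holds for these libraries alone.

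CDKN1C encodes p57Kip2, an imprinted inhibitor that binds cyclin-CDK complexes and slows the cell cycle. In the textbook scheme, D cyclins with CDK4 or CDK6 begin to phosphorylate RB, which frees E2F factors to switch on genes for DNA synthesis, cyclin E and cyclin A with CDK2 drive S phase, and cyclin B with CDK1 drives mitosis. Several other cyclins and CDKs act on RNA polymerase II in transcription and splicing instead of the cell cycle. The early cleavage divisions of the embryo draw on transcripts that the oocyte has stored.

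Levels are FPKM, a measure of fragments per kilobase of transcript that the authors upper-quartile normalised, summed here over loci that share a symbol. Log2 differences are injected over sham, with 1 FPKM added to both values, a scale that understates the change of genes with low levels, while folds given for single genes are plain ratios of FPKM. CDKN1C itself (chromosome 29, 50400507 to 50402515, bosTau7) was at 14.6 FPKM in injected embryos, against 49.5 FPKM in sham embryos, 3.40-fold lower. Common reference genes differed too. GAPDH, to which the study normalised its PCR, had 242 FPKM in injected and 783 FPKM in sham embryos. That PCR showed lower CDKN1C in siRNA-injected blastocysts than in controls, as a level relative to GAPDH, which FPKM is not. RPLP0 had 445 FPKM in injected and 1390 FPKM in sham embryos, while ACTB had 2484 FPKM in injected and 1879 FPKM in sham embryos. Whether the lower value of CDKN1C is specific to that gene was not tested. The deposited values added up to 1051057 FPKM in injected embryos, against 1384061 FPKM in sham embryos, and the median difference over the 7984 genes that averaged 1 FPKM or more over both pools was -0.17. Scaling both pools to the same total moved that median to 0.17, so small differences in either direction depend on the scaling. The number of fragments behind a value is unknown.

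Markers of the blastocyst lineages were present in both pools. All 9 trophectoderm markers averaged 1 FPKM or more and summed to 7590 FPKM in injected embryos, against 17594 FPKM in sham embryos, led by KRT18 with 5389 FPKM in injected and 11245 FPKM in sham embryos. Without the keratins KRT8 and KRT18 the other 7 summed to 590.1 FPKM in injected and 589.7 FPKM in sham embryos. These near-equal sums hide differences in both directions. In injected embryos 3 of the 7 were higher, IFNT2 by 4.33-fold. The rest were lower, CDX2 by 3.15-fold, TEAD4 by 2.02-fold and GATA3 by 1.66-fold. GATA2, the most abundant of the 7, had 379 FPKM in injected and 461 FPKM in sham embryos. All 6 markers of the inner cell mass and epiblast averaged 1 FPKM or more, with sums of 249.9 FPKM in injected and 388 FPKM in sham embryos, as did 4 of 6 hypoblast markers, with sums of 32.7 FPKM in injected and 27.9 FPKM in sham embryos and SOX17 at 0 in both pools. Of the fibroblast and mesenchyme markers, 6 of 12 reached that mean with sums of 256 FPKM in injected and 216 FPKM in sham embryos, while COL1A1 was at 0 in both. All 6 were higher in injected embryos, but to unlike degrees. By 2-fold or more 2 were higher, VIM and LUM. VIM had 18.5 FPKM in injected and 1.46 FPKM in sham embryos, and LUM had 4.77 FPKM in injected and 0.138 FPKM in sham embryos. FN1, the most abundant, had 177 FPKM in injected and 161 FPKM in sham embryos, and SPARC was level at 49.97 FPKM in injected and 49.8 FPKM in sham embryos. Cumulus and granulosa markers averaged 1 FPKM or more for 5 of 12 genes, with sums of 17.1 FPKM in injected and 31.1 FPKM in sham embryos and AMH and PTX3 at 0, and blood markers for 3 of 6, with sums of 28.5 FPKM in injected and 30.6 FPKM in sham embryos and HBB at 0. The marker sums thus differed between the pools, their part in the differences described here was not tested, and in pooled embryos fewer cells of a type and less RNA per cell cannot be told apart.

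Levels ran up to 252 FPKM in injected and 267 FPKM in sham embryos, with CKS2, CKS1B, CCND2 and CDK9 at the top and RB1, RBL1, RBL2 and CDK19 near the bottom. An average of 1 FPKM or more was reached by 37 genes. The other 18 included CDK15 and E2F3, which were at 0 in both pools, CCND1 and E2F2, which were at 0 in injected embryos and at 0.194 FPKM (CCND1) and 0.164 FPKM (E2F2) in sham embryos, and 7 genes above 0 but under 0.5 FPKM in both. Since these values carry no read counts, a listed 0 says only that the deposited value is 0.

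**Figure D1:**
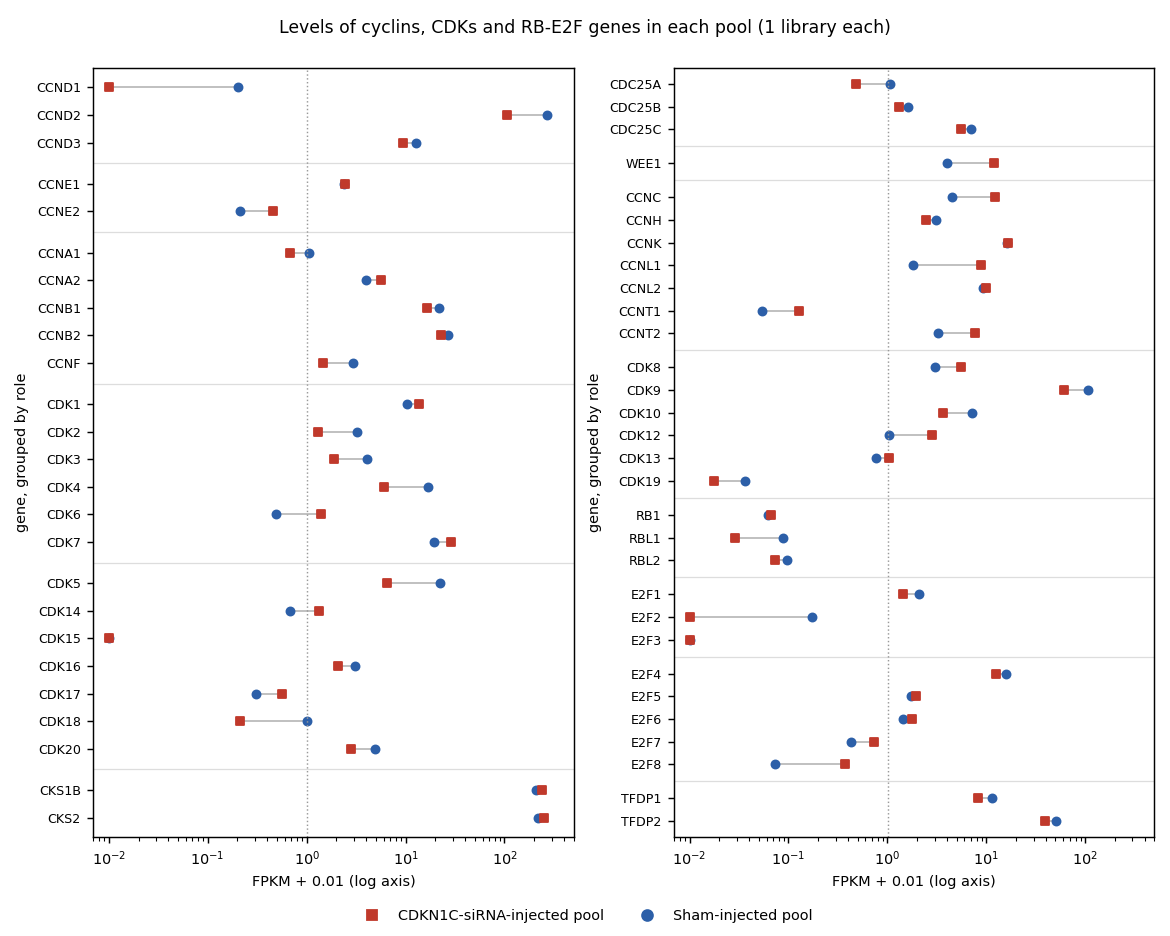
Levels of all 55 genes in FPKM, with 0.01 FPKM added so that zeros can be drawn on the log axis, as red squares for the CDKN1C-siRNA-injected pool and blue circles for the sham-injected pool, 1 library each. CKS1B and CKS2 lie at 206 FPKM or more in both pools, CCND2 lies at 105 FPKM in injected and 267 FPKM in sham embryos, and the pocket proteins RB1, RBL1 and RBL2 lie under 0.1 FPKM in both (squares hide circles where the pools are close, and the dotted line marks 1 FPKM).

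Among these 37 genes, 4 (10.8%) were higher in injected embryos by 2-fold or more on the scale with 1 FPKM added, against 4.92% of all 7984 genes. They were CCNL1, WEE1, CCNC and CCNT2. At least 2-fold lower were 3 (8.11%), CDK5, CCND2 and CDK4, against 15.7% of all genes. Higher by any amount were 17 (45.9%), against 41.7% of all genes, and the median difference was -0.22 for the set beside -0.17 for all genes (0.11 beside 0.17 with the same total in each pool). With both pools scaled to the same total, the split at 2-fold became 6 higher and 1 lower, against 12.0% and 7.32% of all genes, and 25 of 38 genes were higher by any amount. With 5 FPKM added in place of 1 FPKM, WEE1 (0.90), CCNC (0.85), CCNT2 (0.63) and CDK4 (-0.97) fell short of 2-fold. The median of the set thus lay near that of all genes, and the counts past 2-fold rest on 7 genes.

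**Figure D2:**
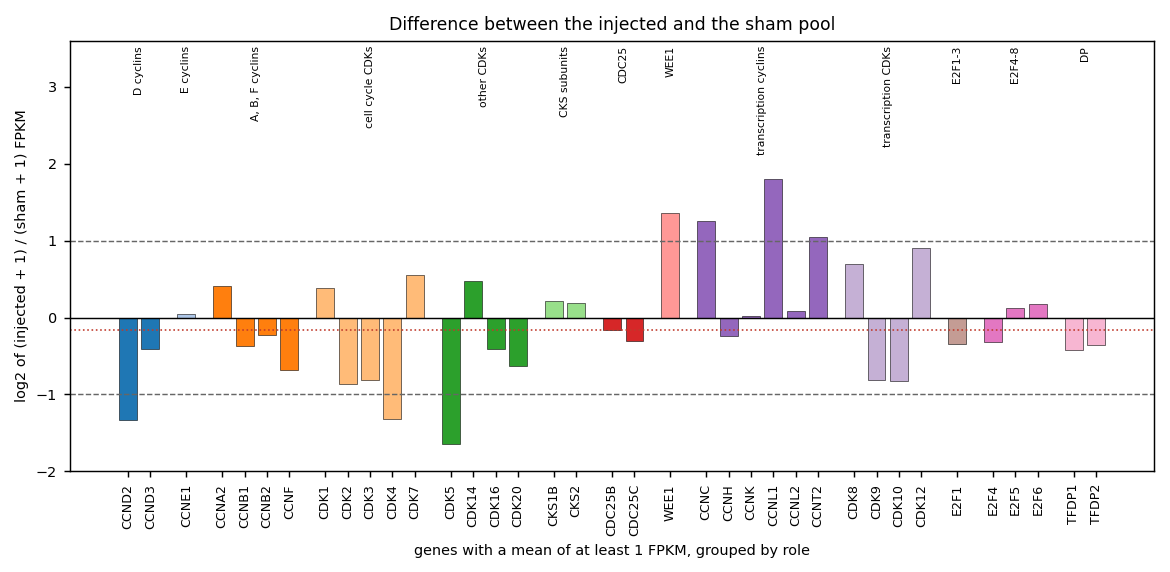
Injected over sham for the 37 genes averaging 1 FPKM or more, as log2 of (injected + 1) over (sham + 1) FPKM, grouped by role, with positive bars higher in injected embryos. Dashed lines mark 2-fold, which CCNL1, WEE1, CCNC and CCNT2 pass upwards and CDK5, CCND2 and CDK4 pass downwards, and the dotted line marks the median of all genes, -0.17.

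The D cyclins, which link growth signals to the start of the cycle, were carried in both pools by CCND2 (chromosome 5, 112050464 to 112073354). CCND2 had 105 FPKM in injected embryos, against 267 FPKM in sham embryos, 2.54-fold lower, with a difference of -1.34 that 7.30% of all genes reached or passed downwards. With the same total in each pool this difference was -0.94, inside 2-fold. CCND3 had 9.48 FPKM in injected embryos, against 12.9 FPKM in sham embryos, a difference of -0.41. CCND2 made up 91.7% of the summed D cyclin level in injected embryos and 95.3% in sham embryos, so the family total of 114 FPKM in injected embryos against 279.9 FPKM in sham embryos followed this gene. The level of CCND2 stood at 7.21 times that of CDKN1C in injected embryos and 5.39 times in sham embryos, the inhibitor and this cyclin both being lower in injected embryos.

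CDK4 and CDK6 are the alternative catalytic partners of the D cyclins. CDK4 (chromosome 5, 59862288 to 59868157) had 6.10 FPKM in injected embryos, against 16.8 FPKM in sham embryos, 2.75-fold lower, with a difference of -1.32 that 7.60% of all genes reached or passed downwards, and -0.97 with the same total in each pool. CDK6 was higher in injected embryos at 1.37 FPKM, against 0.478 FPKM in sham embryos, a difference of 0.68 at a mean under 1 FPKM. CDK4 therefore exceeded CDK6 by 4.45 times in injected embryos and 35.1 times in sham embryos, and its share of the pair was 81.7% in injected and 97.2% in sham embryos. CCND2 stood at 14.04 times the summed level of both kinases in injected embryos and 15.5 times in sham embryos. The cyclin and this sum, most of it CDK4, were thus lower to a like degree, while CDK6 alone was higher. The deposited location of CDK4 is shared with TSPAN31, a membrane protein gene beside it, at 13.9 FPKM in injected and 21.1 FPKM in sham embryos, and whether fragments of the 2 genes were told apart is not given in the sources used here.

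CDC37, the chaperone partner that loads CDK4 and other kinases onto HSP90, was also lower, at 8.30 FPKM in injected embryos, against 22.2 FPKM in sham embryos, a difference of -1.32. Other CDK inhibitors differed in direction. CDKN1A, which encodes p21, had 7.48 FPKM in injected and 6.57 FPKM in sham embryos, and CDKN1B, which encodes p27, had 5.13 FPKM in injected and 3.22 FPKM in sham embryos. CDKN2D, an inhibitor of CDK4 and CDK6, had 25.04 FPKM in injected embryos, against 15.2 FPKM in sham embryos, a difference of 0.69. These 3 inhibitors were thus higher in injected embryos by less than 2-fold as deposited (CDKN2D was at 1.06 with the same total in each pool), while CDKN2A, which encodes p16 and ARF, was lower with 1.24 FPKM in injected and 1.91 FPKM in sham embryos. CDKN2C, which encodes p18 and averaged under 1 FPKM, was lower as well, with 0.304 FPKM in injected and 1.02 FPKM in sham embryos.

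**Figure D3:**
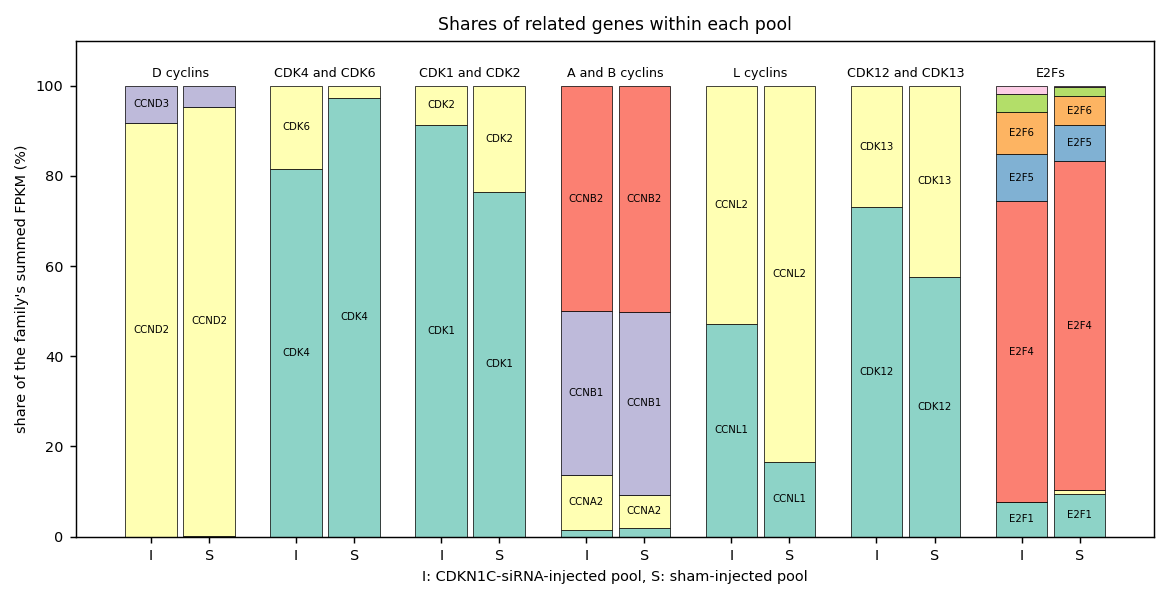
Stacked bars give the share in percent of the summed FPKM of a gene family held by each member, in injected (I, left bar) and sham (S, right bar) embryos, a measure that does not depend on how each pool was scaled. CCND2 holds 91.7% of the D cyclins in injected and 95.3% in sham embryos, CDK4 holds 81.7% of its pair with CDK6 in injected and 97.2% in sham embryos, and CCNL1 holds 47.2% of the L cyclins in injected and 16.5% in sham embryos.

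Cyclin E, the partner of CDK2 at entry into S phase, was low, and its main form was even between the pools. CCNE1 had 2.46 FPKM in injected embryos, against 2.36 FPKM in sham embryos, and CCNE2 had 0.445 FPKM in injected embryos, against 0.202 FPKM in sham embryos. CCNE1 held 84.6% of the pair in injected embryos and 92.1% in sham embryos. The locus of CCNE2 is shared with INTS8 in the deposited coordinates.

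Cyclin A2 and the B cyclins differed in direction as deposited. CCNA2, which serves S phase and the approach to mitosis, had 5.59 FPKM in injected embryos, against 3.95 FPKM in sham embryos, a difference of 0.41. CCNB2 and CCNB1, the mitotic cyclins, were the most abundant of this group, CCNB2 with 22.9 FPKM in injected and 26.9 FPKM in sham embryos and CCNB1 with 16.6 FPKM in injected and 21.7 FPKM in sham embryos. These differences, -0.22 for CCNB2 and -0.37 for CCNB1, changed sign to 0.16 and 0.0076 when both pools were given the same total. CCNB2 held 50.0% of the summed A and B cyclins in injected embryos and 50.1% in sham embryos, and CCNA2 held 12.2% in injected and 7.37% in sham embryos. CCNA1, known in the mouse for male meiosis, had 0.665 FPKM in injected and 1.04 FPKM in sham embryos, and CCNF, an F-box protein of a ubiquitin ligase that activates no CDK, had 1.47 FPKM in injected and 2.97 FPKM in sham embryos. CCNA2 shares its listed location with EXOSC9 and CCNF with NTN3 and C25H16orf59.

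The kinases of S phase and mitosis differed in direction. CDK1, the mitotic kinase, had 13.8 FPKM in injected embryos, against 10.4 FPKM in sham embryos, a difference of 0.38. CDK2 had 1.296 FPKM in injected embryos, against 3.18 FPKM in sham embryos, a difference of -0.87, and CDK3, a little-studied relative of it, had 1.86 FPKM in injected and 4.05 FPKM in sham embryos, a difference of -0.82. CDK1 was thus 10.6 times as abundant as CDK2 in injected embryos and 3.26 times in sham embryos, on FPKM levels. For the cell cycle CDKs that averaged 1 FPKM or more, CDK1, CDK2, CDK3, CDK4 and CDK7, the median difference was -0.82, but that of the 6 genes that passed with the same total in each pool, CDK6 now among them, was 0.11, and that of CDK1, CDK4 and CDK7, which averaged 5 FPKM or more, was 0.38.

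CKS1B and CKS2, small proteins that sit on CDKs and help them to dock on substrates, were the highest of all genes in the set in injected embryos. CKS2 (chromosome 8, 93575983 to 93580879) had 252 FPKM in injected embryos, against 221 FPKM in sham embryos. CKS1B, which SKP2 also needs to mark p27 for degradation, had 239 FPKM in injected embryos, against 206 FPKM in sham embryos. Both differences were small, 0.19 for CKS2 and 0.21 for CKS1B. Their ratio was nearly the same in both libraries, CKS2 making up 51.4% of the pair in injected embryos and 51.7% in sham embryos.

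WEE1 and the CDC25 phosphatases act against each other on CDK1, WEE1 adding the inhibitory phosphate and CDC25 taking it off. WEE1 (chromosome 15, 41945607 to 41957759) had 11.8 FPKM in injected embryos, against 4.01 FPKM in sham embryos, 2.94-fold higher, with a difference of 1.35 that 1.77% of all genes reached or passed. CDC25C had 5.52 FPKM in injected embryos, against 7.06 FPKM in sham embryos, and CDC25B had 1.31 FPKM in injected and 1.59 FPKM in sham embryos, both differences changing sign with the same total in each pool. CDC25A, the form that also acts on CDK2, had 0.467 FPKM in injected embryos, against 1.05 FPKM in sham embryos. WEE1 therefore stood at 1.62 times the summed level of the CDC25 genes in injected embryos and 0.414 times in sham embryos.

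PKMYT1, the membrane-bound kinase that inhibits CDK1 alongside WEE1, differed in the opposite direction. It had 8.58 FPKM in injected embryos, against 39.0 FPKM in sham embryos, 4.55-fold lower, with a difference of -2.06, the lowest in the list of CDK inhibitors and regulators. WEE1 was thus above PKMYT1 in injected embryos and below it in sham embryos.

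CDK5 (chromosome 4, 117271771 to 117276078) had the lowest difference of the set. It is an atypical kinase, studied mainly in neurons, that is activated by p35 or p39 in place of a cyclin. It had 6.48 FPKM in injected embryos, against 22.4 FPKM in sham embryos, 3.45-fold lower, with a difference of -1.64 that 3.21% of all genes reached or passed downwards. CDK5R1, which encodes p35, was at 0 in both pools.

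The remaining less well known CDKs were low. CDK20 had 2.79 FPKM in injected embryos, against 4.85 FPKM in sham embryos. CDK16, a kinase of the PCTAIRE group, had 2.06 FPKM in injected and 3.08 FPKM in sham embryos, and its relatives CDK17 and CDK18 had 0.556 FPKM in injected and 0.2997 FPKM in sham embryos, and 0.203 FPKM in injected and 1.001 FPKM in sham embryos. CDK14, which pairs with cyclin Y at the cell membrane, had 1.33 FPKM in injected embryos, against 0.670 FPKM in sham embryos. Within this group CDK14 was higher by 0.48 and CDK5, CDK16 and CDK20 were lower, for a median difference of -0.52 over these 4 genes.

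Cyclins and CDKs of transcription held 3 of the 4 genes that were higher in injected embryos by 2-fold or more. With CDK7 and CCNH counted among them, 8 of 11 were higher by any amount with a median difference of 0.55, with 3 higher and 0 lower by 2-fold or more, while 9 of the 26 other members were higher with a median of -0.33. This grouping was not among those planned. CDK7, whose own difference is that median of 0.55, is also counted with the cell cycle CDKs above. Of all genes 41.7% were higher by any amount, 4.92% higher by 2-fold or more and 15.7% lower by 2-fold or more. Of the 6 cyclins of this class that averaged 1 FPKM or more, 5 were higher, for a median of 0.57. That median was 0.73 with the median of all genes set to 0. With the same total in each pool it was 0.91, beside a median of 0.17 for all genes. It was 0.35 with 5 FPKM added in place of 1 FPKM, and 0.0996 over 7 genes with no filter on low values. The 4 kinases of this class without CDK7 had a median of -0.055, which turned to 0.30 with the same total.

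CCNL1 and CCNL2 are partners of CDK11 and act in pre-mRNA splicing. CCNL1 (chromosome 1, 111988773 to 112002656) had the highest difference of the set, 8.82 FPKM in injected embryos, against 1.81 FPKM in sham embryos, 4.86-fold higher, with a difference of 1.80 that 0.614% of all genes reached or passed. CCNL2 had 9.85 FPKM in injected embryos, against 9.18 FPKM in sham embryos. The paralogs were therefore near each other in injected embryos, where CCNL1 made up 47.2% of the pair, and far apart in sham embryos, where it made up 16.5%. CDC2L1, an older symbol that RefSeq gives for CDK11B and that the rule did not take, had 49.6 FPKM in injected embryos, against 36.1 FPKM in sham embryos, a difference of 0.45. It was chosen after its value had been seen.

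CCNC with CDK8 or CDK19 forms the kinase module of Mediator, the complex between transcription factors and RNA polymerase II. CCNC (chromosome 9, 52867097 to 52894146) had 12.1 FPKM in injected embryos, against 4.50 FPKM in sham embryos, 2.69-fold higher, with a difference of 1.25 that 2.33% of all genes reached or passed. CDK8 had 5.57 FPKM in injected embryos, against 3.04 FPKM in sham embryos, a difference of 0.70, and CDK19 had 0.00765 FPKM in injected and 0.0265 FPKM in sham embryos. CCNC and CDK8 were thus both higher in injected embryos, CCNC standing at 2.18 times CDK8 in injected embryos and 1.48 times in sham embryos.

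CCNT1 and CCNT2 are the alternative cyclins of CDK9 in P-TEFb, which releases paused RNA polymerase II. CCNT2 (chromosome 2, 64563728 to 64595814) had 7.65 FPKM in injected embryos, against 3.20 FPKM in sham embryos, 2.39-fold higher, with a difference of 1.04 that 4.38% of all genes reached or passed. CCNT1 had 0.118 FPKM in injected and 0.0436 FPKM in sham embryos. CDK9, the most abundant CDK of the set, had 60.4 FPKM in injected embryos, against 107 FPKM in sham embryos, a difference of -0.81. Kinase and cyclin hence differed in opposite directions, and CDK9 stood at 7.78 times the summed T cyclins in injected embryos and 32.9 times in sham embryos.

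CCNK serves CDK12 and CDK13, kinases of the elongating polymerase known for long DNA repair genes. CCNK was level at 16.6 FPKM in injected embryos, against 16.3 FPKM in sham embryos. CDK12 had 2.80 FPKM in injected embryos, against 1.03 FPKM in sham embryos, a difference of 0.91 that lies just under the 2-fold line. It was 1.07 with the median of all genes set to 0, 1.16 with the same total and 1.36 with 0.1 FPKM added. After a loess fit on locus length it was 0.72, and with 5 FPKM added 0.37. CDK13 had 1.03 FPKM in injected embryos, against 0.757 FPKM in sham embryos. CCNK stood at 4.32 times the sum of its kinases in injected embryos and 9.13 times in sham embryos, the cyclin being level and the kinases higher in injected embryos.

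CDK7, CCNH and MNAT1 form the CDK-activating kinase, which phosphorylates the activation loop of CDK1, CDK2 and CDK4 and is also part of the transcription factor TFIIH. CDK7 had 28.6 FPKM in injected embryos, against 19.2 FPKM in sham embryos, a difference of 0.55, and MNAT1 had 9.16 FPKM in injected and 7.11 FPKM in sham embryos, a difference of 0.32. CCNH had 2.45 FPKM in injected embryos, against 3.08 FPKM in sham embryos, a difference of -0.24 that changed sign to 0.051 with the same total in each pool, and it shares its listed location with RASA1. All 3 differences were under 2-fold. CDK7 and CCNB1 lie 46.2 kb apart on chromosome 20 and differed in opposite directions as deposited.

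CDK10, a kinase that pairs with cyclin M, had 3.62 FPKM in injected embryos, against 7.14 FPKM in sham embryos, a difference of -0.82. It was listed at 2 loci 179 kb apart on chromosome 18. The main locus (13550744 to 13557889) had 3.62 FPKM in injected and 7.10 FPKM in sham embryos, and the other had 0 FPKM in injected and 0.0390 FPKM in sham embryos, so the sum followed the main locus.

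The pocket proteins that CDKs phosphorylate were near the bottom of the set. RB1 had 0.0573 FPKM in injected embryos, against 0.0525 FPKM in sham embryos, RBL1 (p107) had 0.0188 FPKM in injected and 0.0783 FPKM in sham embryos, and RBL2 (p130) had 0.0623 FPKM in injected and 0.0877 FPKM in sham embryos. No family member reached 0.1 FPKM in either pool, and at this level no difference between the pools can be read without the fragment counts. RB1 shares its listed location with LPAR6, and RBL2 with AKTIP at 7.32 FPKM in injected and 3.69 FPKM in sham embryos.

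Of the E2F factors, E2F4 was the most abundant in both pools. E2F4, which binds promoters together with p107 and p130 in quiescent cells, had 12.5 FPKM in injected embryos, against 15.9 FPKM in sham embryos, 66.9% of the family sum in injected and 73.1% in sham embryos. Of the activators, E2F1 had 1.41 FPKM in injected embryos, against 2.06 FPKM in sham embryos, E2F2 was at 0 in injected embryos, and E2F3 was at 0 in both.

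E2F5, the other partner of the p130 group, had 1.94 FPKM in injected embryos, against 1.71 FPKM in sham embryos, and it shares its listed location with C14H8orf59 at 402 FPKM in injected and 208 FPKM in sham embryos. E2F6, a repressor that does not bind pocket proteins, had 1.74 FPKM in injected and 1.43 FPKM in sham embryos. The atypical repressors E2F7 and E2F8, which bind DNA without a DP partner, had 0.730 FPKM in injected and 0.418 FPKM in sham embryos and 0.358 FPKM in injected and 0.0626 FPKM in sham embryos. The repressors E2F5, E2F6, E2F7 and E2F8 were thus each higher in injected embryos as deposited and E2F1, E2F2 and E2F4 lower, by under 2-fold on the scale with 1 FPKM added, but E2F4, at -0.32, turned to 0.048 with the same total in each pool and E2F5, at 0.12, turned to -0.085 after a loess fit on locus length.

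The DP proteins, which E2F1 to E2F6 need to bind DNA, were carried by TFDP2. TFDP2 had 39.2 FPKM in injected embryos, against 50.6 FPKM in sham embryos, a difference of -0.36 that changed sign to 0.028 with the same total in each pool. TFDP1 had 8.27 FPKM in injected and 11.4 FPKM in sham embryos, a difference of -0.42. The balance within the pair was similar, TFDP2 holding 82.6% in injected and 81.6% in sham embryos.

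Genes that E2F and MuvB complexes are known to control, and the ubiquitin ligases that degrade cyclins, were read from lists chosen by function. Of 26 E2F target genes of G1 and S phase, 0 were higher and 3 were lower by 2-fold or more, where all genes gave 4.92% and 15.7%, with a median difference of -0.11 that was 0.23 with the same total in each pool. The 3 act at replication origins. The licensing factor CDT1 had 2.46 FPKM in injected embryos, against 7.87 FPKM in sham embryos, MCM7 of the replicative helicase had 23.97 FPKM in injected and 62.2 FPKM in sham embryos, and MCM5 had 3.64 FPKM in injected and 9.58 FPKM in sham embryos. The other 23 ran from -0.95 for POLA2 to 0.95 for RRM1 on the log2 scale. Among the most even was PCNA, the sliding clamp of DNA polymerase, at 14.4 FPKM in injected and 13.9 FPKM in sham embryos. RRM1, a subunit of ribonucleotide reductase, had 4.33 FPKM in injected embryos, against 1.76 FPKM in sham embryos.

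Of 17 mitotic genes bound by MuvB that averaged 1 FPKM or more, 11 were higher and 6 lower with a median of 0.14, where 41.7% of all genes were higher. That median was 0.020 after a loess fit on locus length and 0.052 at a mean of 5 FPKM or more. With the same total in each pool it was 0.45. At 2-fold, 0 were higher and 1 was lower, where all genes gave 4.92% and 15.7%. It was CDC20, the mitotic activator of the APC/C ubiquitin ligase, with 24.98 FPKM in injected embryos, against 63.3 FPKM in sham embryos, a difference of -1.31. The other activator of the ligase, FZR1 (CDH1), was the gene at least 2-fold lower among 12 SCF and APC/C genes, with 1.64 FPKM in injected embryos, against 4.68 FPKM in sham embryos, a difference of -1.10. Both activators of APC/C were thus at least 2-fold lower as deposited, while the 12 genes had a median of 0.21. Of the SCF ligases, which remove cyclin E and p27, the scaffold CUL1 had 1.98 FPKM in injected and 1.57 FPKM in sham embryos and the cyclin E receptor FBXW7 had 7.52 FPKM in injected and 6.35 FPKM in sham embryos.

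Of 10 CDK inhibitors and regulators that averaged 1 FPKM or more, 6 were higher with a list median of 0.24. At 2-fold 0 were higher and 3 lower, PKMYT1, CDKN1C and CDC37. CDKN1C is the siRNA target, so its lower value says nothing of the other genes in this list. CDK2AP1, which binds CDK2, had the highest difference of that list, 0.96, with 55.0 FPKM in injected embryos, against 27.8 FPKM in sham embryos. Of the MuvB core genes and partners, 3 averaged 1 FPKM or more, RBBP4, HDAC1 and HDAC2. LIN37, LIN52 and LIN54 averaged less, so the median of that list does not cover them. Of these 3 genes and of 5 cyclins and cyclin-binding genes that the rule did not take, 0 were at least 2-fold different as deposited. The medians were 0.32 and 0.52. CCNG1, a target of p53, was the most abundant of these cyclins with 46.2 FPKM in injected embryos, against 31.0 FPKM in sham embryos. Across these lists 0 of 73 genes were higher and 8, the siRNA target CDKN1C among them, were lower by 2-fold or more as deposited. All genes gave 4.92% and 15.7%. With the same total in each pool the split turned to 8 higher and 3 lower, where all genes gave 12.0% and 7.32%. CDT1, the siRNA target CDKN1C and PKMYT1 then remained past 2-fold lower, at -1.04, -1.32 and -1.69, and MCM5, MCM7, CDC20, FZR1 and CDC37 were inside it.

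**Figure D4:**
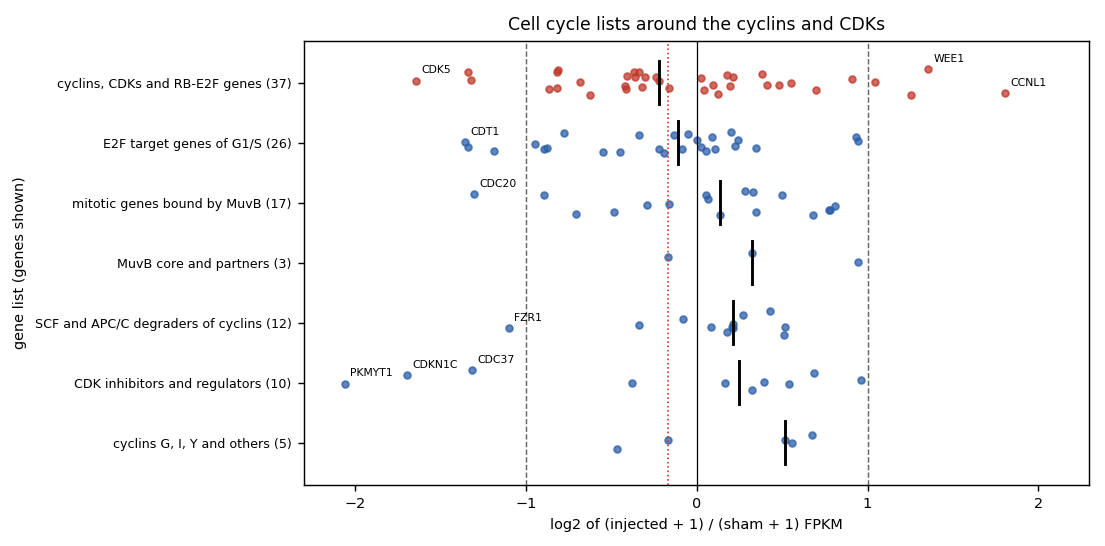
Injected over sham embryos, as log2 of (injected + 1) over (sham + 1) FPKM, of the 37 members and of each list chosen by function, 1 point per gene averaging 1 FPKM or more, a bar at each median, dashed lines at 2-fold and a dotted line at the median of all genes, -0.17. PKMYT1 has the lowest value at -2.06 and CCNL1 the highest at 1.80, the list medians lie between -0.22 and 0.52 as deposited, and the medians of the E2F targets and of the 37 members change sign with the same total in each pool, to 0.23 and 0.11.

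Differences in these libraries went along with the length of a gene's listed location. Of members listed at under 10 kb, 3 of 14 were higher in injected embryos, with a median of -0.52. By 2-fold or more 0 of them were higher and 2 (CDK4 and CDK5) lower, where all genes under 10 kb gave 3.78% and 25.9%. Of members at 10 to under 30 kb, 9 of 14 were higher with a median of 0.11, and at 30 kb or more, 5 of 9 with a median of 0.12. Over all genes the share that was higher grew with length, with 27.8%, 39.4% and 55.8% higher and medians of -0.49, -0.20 and 0.092 in these length classes. Across genes, which are not independent and come from the same libraries, Pearson's r of difference and log length was 0.36 and Spearman's rho 0.45 over the 37 members, and 0.25 and 0.29 over all 7984 genes.

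With a loess fit on locus length taken off, CDK4 was at -0.98 and CCNT2 at 0.90, both inside the 2-fold line, while CCNL1, WEE1, CCNC, CDK5 and CCND2 stayed outside it. The listed location of 8 members (5 of them among the 37) is shared with another gene, so its length is not their own. Without these, r was 0.40 and rho 0.49 over 32 members.

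**Figure D5:**
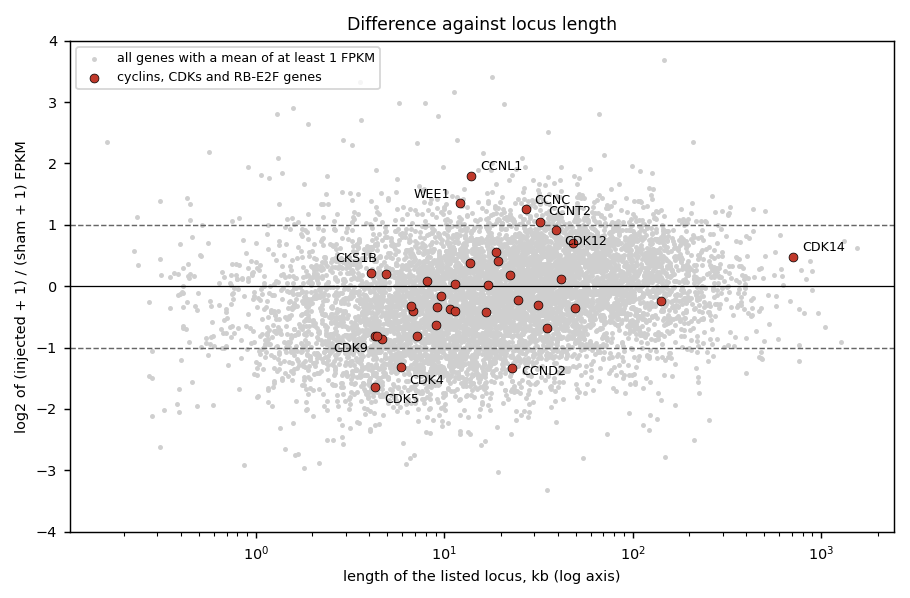
Injected over sham embryos, as log2 of (injected + 1) over (sham + 1) FPKM, against the length of the listed location in kb on a log axis, for the 37 members (red) over all 7984 genes averaging 1 FPKM or more (grey, with 8 genes outside the vertical range). Of members under 10 kb, 3 of 14 lie above 0, as do 9 of 14 at 10 to under 30 kb and 5 of 9 at 30 kb or more.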

How the data were processed

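Each pool was 1 library. As deposited, the authors' FPKM values come from reads mapped to bosTau7 with TopHat and quantified with Cufflinks 2.0.2, upper-quartile normalised and corrected for sequence bias, after linear RNA amplification. The gene annotation and the strand setting are not given in the sources used here. Of 22220 loci, 615 without a symbol (3.37% and 3.41% of FPKM in injected and sham embryos) were left out. The depth is unknown: low values place the worth of 1 fragment in injected embryos at 0.90 times that in sham embryos, but give no count. Genes averaging 1 FPKM or more were compared by log2 after adding 1 FPKM, and 2-fold was the size rule. No test, SD or interval is possible with 1 library per group. Members averaging 1 FPKM or more are named, and of each list those past 2-fold. Other list genes named were chosen after their values were seen. The members and lists were chosen with earlier results of these data known. Gene lists came from general knowledge of the field. Symbols were matched to RefSeq (ARS-UCD2.0) for names only. Promoter and protein sequence features were not analysed here. Calculations used statsmodels 0.14.6 for loess, pandas 2.3.3 and Python 3.11.15, with plots from matplotlib 3.10.9. Alternatives were other pseudocounts, filters, folds and scalings, the highest locus in place of the sum, a loess fit on locus length, and, added after seeing the data, leaving out genes with a shared location.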

Additional observations from a re-analysis of the deposited data

How the results depend on the processing

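CCNL1 and CDK5 passed 2-fold in the same direction under each pseudocount, filter and scaling tried, and of the 7 genes past 2-fold none changed direction. The count of members higher by 2-fold or more, 4, became 1 with a pseudocount of 5 FPKM (1.49% of all genes) and 0 at 4-fold. The count lower, 3, became 5 with a pseudocount of 0.1 FPKM (20.5% of all genes) and 1 with the same total in each pool (7.32% of all genes). At 4-fold it was 0 and at 1.5-fold 9. No share of all genes is given for 4-fold or 1.5-fold, so the counts there say nothing particular of the members. The same total in each pool placed CCND2 at -0.94 and CDK4 at -0.97, and a pseudocount of 5 FPKM left CCNL1, CCND2 and CDK5 past 2-fold, with WEE1 at 0.90, CCNC at 0.85, CCNT2 at 0.63 and CDK4 at -0.97. The median of the cell cycle CDKs, -0.82, became -0.22 with no filter, 0.38 at a mean of 5 FPKM, 0.11 with the same total and -0.22 without genes that share a location. At a mean of 5 FPKM the median was -0.81 for the transcription CDKs, from CDK9 and CDK10, and -1.64 for the other CDKs, from CDK5 alone. These medians rest on 1 to 6 genes. Below 2-fold, 7 members changed sign with the same total, 2 after the loess fit and 1 with the median of all genes set to 0. With the same total the medians of the S and M phase cyclins, the CDC25 genes, the transcription CDKs and the E2F targets were above 0, at 0.083, 0.053, 0.30 and 0.23. The transcription CDKs and the E2F targets were also above 0, at 0.11 and 0.057, with the median of all genes set to 0, and after the loess fit the transcription CDKs were at 0.010 and the repressor E2Fs at -0.0051. Other sign changes of medians were 0.016 (pseudocount 0.1 FPKM) and 0.092 (no filter) for the transcription CDKs, -0.32 (mean of 5 FPKM, E2F4 alone) and -0.073 (without shared locations) for the repressor E2Fs, and -0.024 (no filter) for the MuvB core genes and partners. The median of all members changed sign to 0.11 with the same total. No paired analysis was possible because each group is 1 library, and for the same reason no replicate could be left out. The planned motif search was not run. Values under 0.2 FPKM may rest on a few fragments.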
